A study of Mus musculus with 60 samples.

Results

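Mouse erythroleukemia cells that had been treated with trichostatin A (TSA) for 24 or 36 h were compared with the same cells treated with hexamethylene bisacetamide (HMBA) for as long. The comparison takes the TSA 24 h, TSA 36 h, HMBA 24 h and HMBA 36 h groups, 16 of the 60 arrays in the series, with 8 arrays a side. TSA was given at 30 nM and HMBA at 5 mM, so the chemicals are compared at doses that differ, and no untreated culture of matched age was labelled. All groups are T-3-Cl-2-0.fl cells, a single line labelled as highly inducible to differentiate, grown in RPMI1640 with 10% fetal calf serum. Cells treated with 1.5% DMSO at the same times are given beside the results.

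Every array carried RNA from after treatment against RNA from before treatment, and a value is the log2 ratio of after over before. The 4 arrays of a group are technical replicates of 1 pair of RNA extracts. Replicates 1 and 2 carried Cy5 on the RNA from after treatment, and replicates 3 and 4 carried Cy3 on it. TSA and HMBA arrays were matched by time and replicate number, which gave 8 pairs with the same dye. Since an extract stands for a whole condition, conditions and not arrays carried the tests, and p-values measure the spread between conditions, not between repeated cultures. Both chemicals were hybridised on the same layout of 2 slides, while DMSO arrays had another layout. The sources used here do not say whether TSA and HMBA arrays shared 1 before-treatment extract.

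Erythroleukemia cells are virus-transformed red cell precursors held at an immature stage. Inducers release this block, and the cells then stop dividing, build haemoglobin and take on red cell membrane proteins. TSA inhibits histone deacetylases, so that acetyl groups stay on histones and on other proteins and many genes change their transcription. HMBA is a small polar compound and a classical inducer of these cells; it also raises an inhibitor protein of the elongation kinase P-TEFb that is named after it. The features on the arrays are cDNA clones known here only by a plate and well, and 0 of the 22656 clone identifiers matched the gene table. No gene can be named, the markers of the erythroid and other blood lineages could not be read, and several clones can stand for the same gene.

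The TSA arrays listed 18287 to 19347 clones and the HMBA arrays 16550 to 19412. Arrays of the same dye orientation correlated across clones at r = 0.170 to 0.542 within the TSA conditions and at 0.264 to 0.515 within the HMBA conditions, the lowest value being that of the Cy3 arrays of TSA at 36 h. Arrays of opposite orientation correlated at -0.10 to 0.25 within TSA and 0.12 to 0.27 within HMBA. Agreement between single arrays was therefore limited, and mostly weaker across dye orientations. The mean over both dye orientations was used for every condition.

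After 24 and 36 h, 280 clones were higher with TSA than with HMBA and 507 were lower, of 14816 tested (limma, Benjamini-Hochberg adjusted p below 0.05). These are 1.89% and 3.42% of the clones tested. The higher calls differed by 0.53 to 3.89 log2 units with a median of 1.09, and the lower calls by -2.24 to -0.55 with a median of -0.93. Over all clones tested the median difference was -0.02 and the median size 0.237. The far end of the distribution lay with TSA: 45 of the higher calls differed by at least 2 log2 units, against 2 of the lower calls. Over all clones tested the numbers at this size were 47 higher and 2 lower, while at 1 log2 unit or more they were nearly equal, with 226 higher and 239 lower. These numbers count clones, of which several can stand for the same gene. The median 95% half-width of a difference was 0.41 log2 units, and differences up to 2.05 above and 1.55 below 0 were not called.

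**Figure D1:**
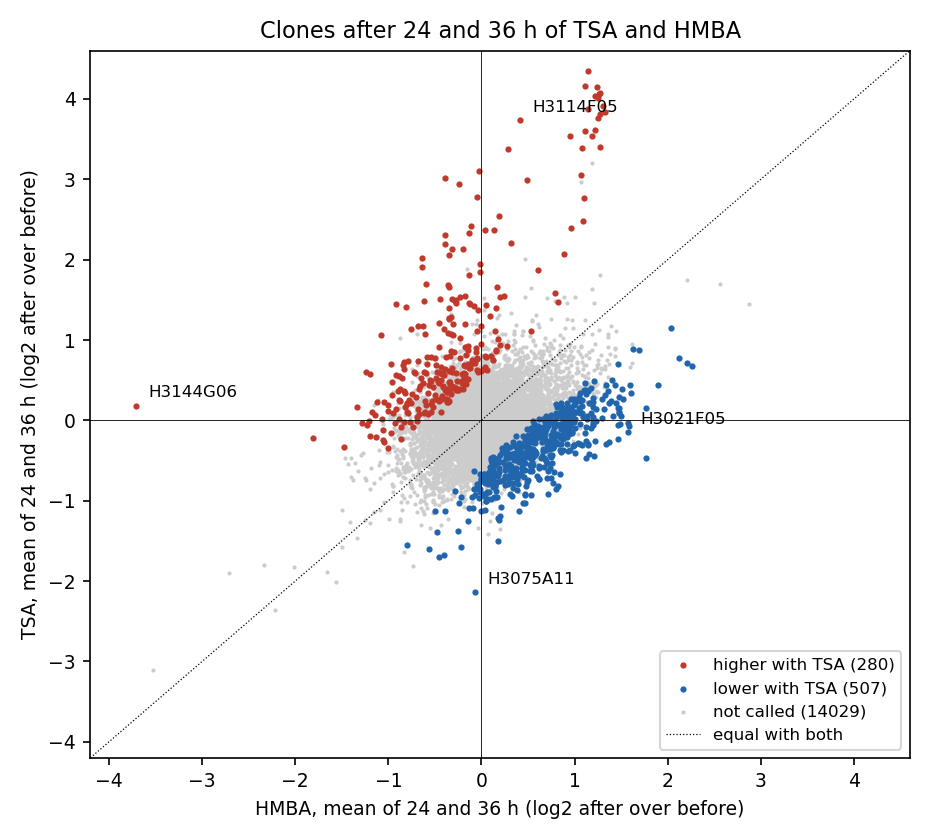
Each point is 1 of the 14816 clones tested, with the mean log2 ratio of after over before at 24 and 36 h with HMBA on the horizontal axis and with TSA on the vertical axis. Red points are the 280 clones called higher with TSA, blue points the 507 called lower and grey points the clones not called; the dotted line marks equal values, and a group of clones with TSA values near 4 stands at HMBA values near 1.

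The count of calls depended on the conditions that gave the spread. Without DMSO, which entered for the spread alone, 29 clones were called, 26 higher and 3 lower. With 36 h alone as the late time 123 were called (91 and 32), and with 24 h alone 69 (54 and 15). Without replicate 3 the split was 120 higher and 124 lower, and without replicate 4 it was 454 and 999. Without replicate 1 it was 182 and 282, and without replicate 2 it was 143 and 184. The Cy5 arrays alone gave 74 higher and 37 lower, and the Cy3 arrays alone 126 and 236, so which direction held more clones was not settled. A fit over single arrays with the replicate number as a block called 2553 clones, 1038 higher and 1515 lower; it counts technical arrays and gave 2648 with no replicate term. In none of these settings was any of the 787 clones called in the opposite direction.

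Among the clones with all 8 pairs listed, 153 of 204 higher calls (75%) and 314 of 432 lower calls (72.7%) had the sign of their mean on 8 of 8 pairs. Over all clones tested the share was 11.4%. The pairs are the arrays the calls were made from, so these shares describe the calls and do not test them. All 787 called clones had the same sign at 24 h and at 36 h, against 68.3% of the clones tested; a call favours differences that recur at both times. At 36 h the difference was larger than at 24 h in 141 of the 280 higher calls and in 273 of the 507 lower calls. Over all clones tested it was larger at 36 h in 7200 of 14816. Which time had the larger difference does not show how much each time contributed to a call.

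The clone with the highest difference was H3144G06. With TSA it read 0.27, 0.32, 0.10 and -0.62 at 24 h and 0.44, 0.33, 0.69 and -0.08 at 36 h on replicates 1 to 4, against -3.41, -3.39, -4.07 and -3.64 at 24 h and -3.40, -3.61, -4.34 and -3.82 at 36 h with HMBA. All 8 HMBA arrays were far below 0, all 8 TSA arrays were near 0, and the sets did not overlap.

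The late difference of H3144G06 was 3.89 log2 units (SE 0.28, 95% interval 3.25 to 4.54, limma adjusted p = 0.00164), a 14.8-fold higher ratio with TSA. Its level with TSA did not pass the test against before treatment (0.18, adjusted p = 0.636), while with HMBA it fell by 3.71 (adjusted p = 0.000549). After HMBA its intensity lay above only 3.89% to 14.1% of the clones on the slide, against 62.9% to 74.7% after TSA. The files hold no background measure, so how far the HMBA value stood above background was not measured. With HMBA the clone stood at -0.47 ± 0.29 at 6 h and -1.43 ± 0.20 at 12 h (SD, n = 4 technical arrays). With DMSO it stood at -1.25 ± 0.94 at 24 h (n = 3 arrays) and -2.20 ± 0.56 at 36 h (n = 4).

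H3114F05 was the next highest clone. It read 2.82, 3.32, 3.35 and 2.52 at 24 h and 4.65, 4.53, 4.26 and 4.42 at 36 h with TSA, against -0.08, -0.25, -0.07 and -0.26 at 24 h and 0.31, 0.86, 1.14 and 1.62 at 36 h with HMBA. Every TSA array was above every HMBA array, and both chemicals had higher values at 36 h than at 24 h. The late difference was 3.33 (SE 0.19, 95% interval 2.89 to 3.76, limma adjusted p = 0.00164), a ratio 10.0-fold higher with TSA. The clone rose with TSA against before treatment (3.73, adjusted p = 2.86e-05), and stood at 0.41 with HMBA (adjusted p = 0.0915). After TSA its spots were among the brightest, above 97.3% to 99.9% of the clones on the slide. After 36 h of TSA its intensities were 39330 to 60630, and whether these were near saturation was not measured. With DMSO it stood at -0.14 ± 0.40 at 24 h and 1.70 ± 0.32 at 36 h (SD, n = 4 technical arrays).

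H3075A11 was the lowest clone with TSA among those with the same sign on all 8 pairs. It read -1.64, -1.80, -2.24 and -2.67 at 24 h and -1.88, -1.97, -2.67 and -2.26 at 36 h with TSA, against -0.06, 0.25, 0.07 and -0.75 at 24 h and 1.11, -0.17, -0.63 and -0.38 at 36 h with HMBA. The TSA arrays lay below all HMBA arrays, and the HMBA arrays scattered on both sides of 0. The late difference was -2.07 (SE 0.14, 95% interval -2.39 to -1.75, limma adjusted p = 0.00164), so that the ratio was 4.20-fold higher with HMBA. After TSA its intensity lay above only 13.2% to 32.4% of the clones on the slide, against 34.9% to 61.1% after HMBA, and how far it stood above background was not measured. Its intensity before treatment was 735.5 to 1064 with TSA and 332.5 to 859.5 with HMBA at 24 h. At 36 h it was 794.6 to 1040 and 609.9 to 941.4, and the part of this in the difference was not tested. The clone fell by 2.14 with TSA (adjusted p = 6.9e-05) and stood at -0.07 with HMBA (adjusted p = 0.702). With TSA it already stood at -1.99 ± 0.34 at 6 h, against -0.83 ± 0.19 with HMBA (SD, n = 4 technical arrays). With DMSO it stood at -0.05 ± 0.25 at 24 h and 0.05 ± 0.20 at 36 h.

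H3021F05 was the next lowest clone with TSA by the same rule. It read 0.22, -0.08, -0.62 and -0.12 at 24 h and -0.04, 0.02, -0.13 and -0.43 at 36 h with TSA, against 1.94, 2.04, 1.67 and 1.79 at 24 h and 0.85, 1.86, 1.38 and 1.07 at 36 h with HMBA. The sets did not overlap. The late difference was -1.72 (SE 0.26, 95% interval -2.31 to -1.12, limma adjusted p = 0.0160), a ratio 3.29-fold higher with HMBA. At 24 h the clone's intensity before treatment was 858.6 to 1479 on the TSA arrays and 309.6 to 990.3 on the HMBA arrays. After treatment it was 872 to 1162 and 1520 to 2838. At 36 h the intensity before treatment was 1175 to 1457 and 437.7 to 1504, and after treatment 789.7 to 1705 and 1474 to 2454. The before-treatment RNA thus read lower on some HMBA arrays, and its part in the difference was not tested. The clone rose with HMBA (1.57, adjusted p = 0.00261) and stood at -0.15 with TSA (adjusted p = 0.688). It lost the call without DMSO (adjusted p = 0.0693), with 36 h alone (0.121), with 24 h alone (0.0826) and on the Cy5 arrays alone (0.0578). The DMSO values were 1.21 ± 0.24 at 24 h and 0.88 ± 0.32 at 36 h (SD, n = 4 technical arrays), between those with TSA and HMBA.

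**Figure D2:**
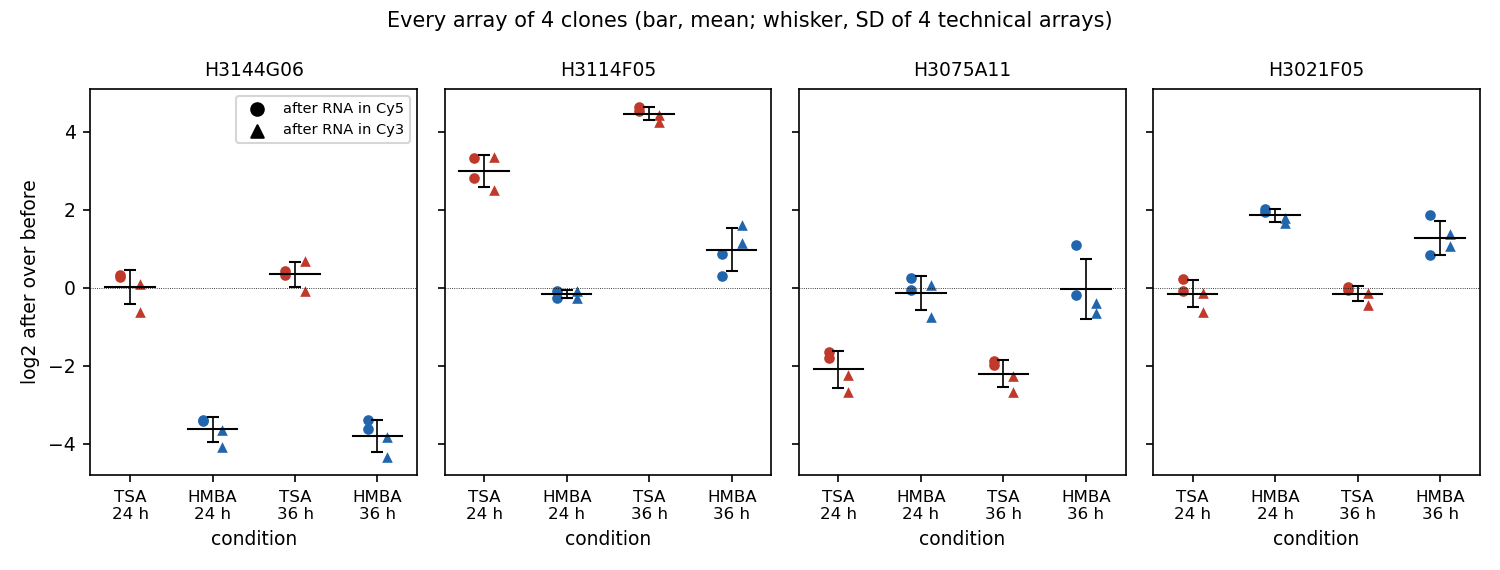
The log2 ratio of after over before is drawn for every array of the 4 named clones, with circles for after-treatment RNA in Cy5 and triangles for Cy3, and the mean and SD of the 4 technical arrays of each condition in black. In each panel and at each time the TSA arrays are wholly above (H3144G06, H3114F05) or wholly below (H3075A11, H3021F05) the HMBA arrays.

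The same fit tested each chemical against before treatment, which shows on which side a difference lay. With TSA 668 clones (4.51%) were called higher and 867 (5.85%) lower, and with HMBA 1125 (7.59%) were called higher and 607 (4.1%) lower. These tests share their arrays with the difference between the chemicals, so the counts that follow describe the called clones and do not support them. Without DMSO the totals were 642 clones with TSA and 875 with HMBA, and on the Cy3 arrays alone they were 2468 and 1039, so the numbers do not rank the chemicals. The counts by side that follow rest on these calls in the main setting, and do not rank the chemicals either.

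In most clones called higher with TSA, a rise with TSA was called. Of the 280, 177 were called higher than before treatment with TSA, where 4.51% of all clones tested were. A fall with HMBA was called in 106, where 4.1% of all clones tested had 1. The most frequent case was a rise called with TSA alone (131 clones), with medians of 0.94 with TSA, -0.18 with HMBA and -0.15 with DMSO. In 83 clones only the fall with HMBA was called, with medians of 0.19 with TSA, -0.83 with HMBA and -0.37 with DMSO. H3114F05 belongs to the first of these sets and H3144G06 to the second. Another 23 clones moved in opposite directions, with medians of 0.71 with TSA and -0.61 with HMBA, and 20 were called against before treatment with neither chemical.

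In 23 clones both rises were called, and TSA exceeded HMBA, with medians of 3.54 with TSA, 1.11 with HMBA and 0.68 with DMSO. The median difference of these 23 clones was 2.49 log2 units, against 1.16 in the 131 clones where a rise was called with TSA alone. A rise not called with HMBA is not shown to be absent: H3114F05, among the 131, stood at 0.98 ± 0.54 with HMBA at 36 h (SD, n = 4 technical arrays).

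In most clones called lower with TSA, a rise with HMBA was called. Of the 507, 317 were called higher than before treatment with HMBA, where 7.59% of all clones tested were. A fall with TSA was called in 188, where 5.85% of all clones tested had 1. A rise with HMBA alone was called in 279 clones, with medians of -0.10 with TSA, 0.86 with HMBA and 0.35 with DMSO. A fall with TSA alone was called in 155, with medians of -0.72 with TSA, 0.16 with HMBA and 0.0002 with DMSO. Another 28 clones fell with TSA and rose with HMBA, with medians of -0.62 with TSA and 0.57 with HMBA. Both rises were called in 10 clones, both falls in 5 and neither change in 30.

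DMSO, also an inducer of these cells, is set beside both chemicals. In the 280 higher calls the TSA median was 0.64, the HMBA median -0.35 and the DMSO median -0.21, and DMSO was nearer to HMBA than to TSA in 229 of them (81.8%), against 53.6% of the clones tested. In the 507 lower calls the TSA median was -0.31, the HMBA median 0.62 and the DMSO median 0.19, and DMSO was nearer to HMBA in 297 (58.6%). DMSO lay between the chemicals in 166 of the higher calls (59.3%) and in 418 of the lower calls (82.4%), against 43.6% of the clones tested. A call sets TSA and HMBA far apart, which leaves more room between them. The DMSO slides had another layout, and a slide effect and DMSO cannot be told apart.

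**Figure D3:**
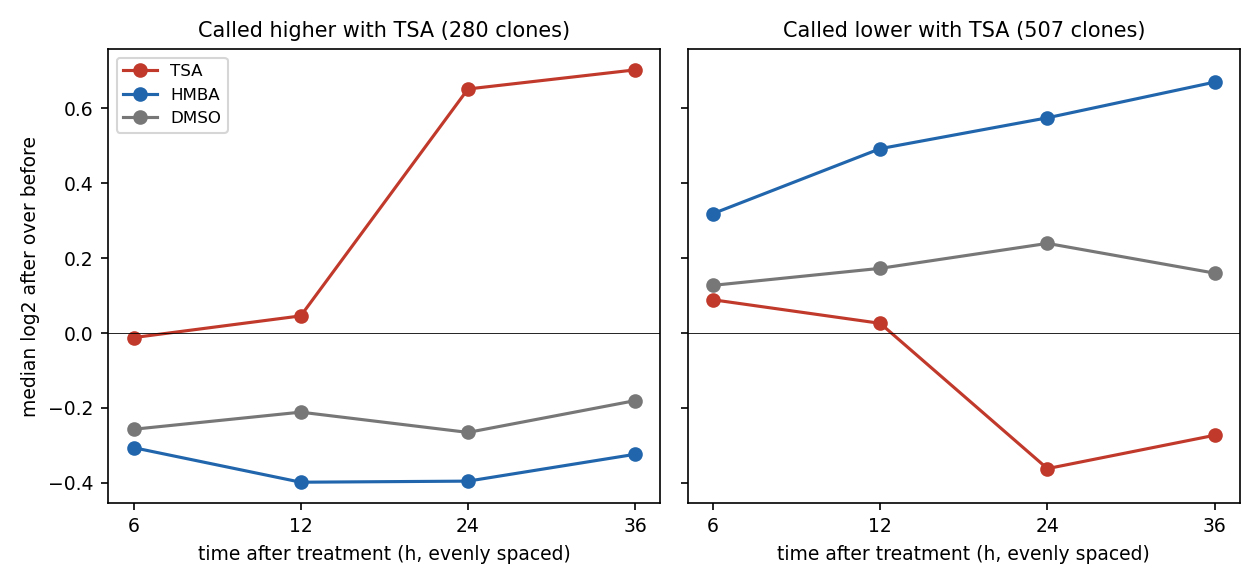
Median log2 ratio of after over before at 6, 12, 24 and 36 h for the 280 clones called higher with TSA (left) and the 507 called lower (right), with TSA in red, HMBA in blue and DMSO in grey. In the left panel TSA lies near 0 at 12 h and at 0.65 and 0.70 at 24 and 36 h, while HMBA is below 0 throughout; in the right panel HMBA is above 0 throughout and TSA is below 0 at 24 and 36 h.

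In the medians of these clones, TSA stood near 0 at 6 and 12 h, while HMBA stood away from 0 by 6 h. In the higher calls the TSA medians at 6, 12, 24 and 36 h were -0.01, 0.05, 0.65 and 0.70, and the HMBA medians were -0.31, -0.40, -0.40 and -0.32. In the lower calls the TSA medians were 0.09, 0.03, -0.36 and -0.27, and the HMBA medians were 0.32, 0.49, 0.57 and 0.67. The clones were chosen on their values at 24 and 36 h, which favours large differences at those times, and the early values were not used in the choice other than for the spread.

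At 6 and 12 h, times outside the choice, the median difference in the higher calls was 0.31 and 0.36, and 213 and 225 of the 280 were above 0. In the lower calls it was -0.29 and -0.47, with 124 and 95 of the 507 above 0. Over all clones tested the medians were 0.02 and -0.00275, with 7788 and 7358 of 14816 above 0. Both sets of clones therefore leaned in the direction of the late difference before 24 h, with medians well under the 1.04 and 1.08 at 24 and 36 h in the higher calls and the -0.88 and -0.93 in the lower calls. The arrays at all times are read against before-treatment RNA, and whether it was 1 extract for all of them is not given. The values at 1 h were left out, since the Cy3 arrays of HMBA at 1 h correlated at r = -0.33 and their direction is not settled.

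Whether the late difference differed from that at 6 and 12 h was tested in the same fit. In limma 0 of 14816 clones (0%) were called, with 1928 at an unadjusted p under 0.05, and the median 95% half-width was 0.58 log2 units. With the 1 h conditions in the fit 23 clones were called, 20 of them higher, and with plate-row medians removed 13 were called. The fit over single arrays called 364 with the replicate block and 436 with no replicate term. The lowest adjusted p-values of the named clones were those of H3144G06, whose late difference exceeded that at 6 and 12 h by 3.09 (SE 0.39, limma adjusted p = 0.0898), and of H3114F05, by 2.06 (SE 0.27, adjusted p = 0.0898). For H3075A11 the change was -0.78 (adjusted p = 0.232), and for H3021F05 it was -0.62 (adjusted p = 0.509). H3075A11 and H3021F05 already differed by -1.29 and -1.10 at 6 and 12 h.

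**Figure D4:**
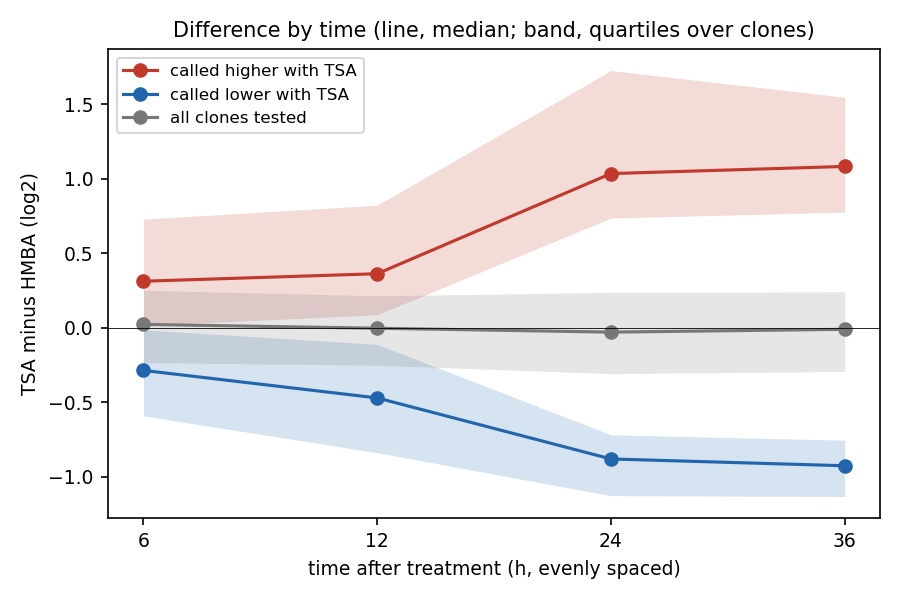
TSA minus HMBA in log2 units at 6, 12, 24 and 36 h, as the median (line) and quartiles (band) over the 280 clones called higher with TSA (red), the 507 called lower (blue) and all 14816 clones tested (grey). The red and blue medians are 0.31 and -0.29 at 6 h and 1.08 and -0.93 at 36 h, while the grey median stays near 0.

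A second view asked which clones were far apart on every matched array pair, with no test, since the pairs are technical. Of the 12294 clones listed on all 16 arrays, 40 (0.325%) were at least 1 log2 unit higher with TSA on 8 of 8 pairs and 8 (0.0651%) at least 1 unit lower. More clones were on the higher than on the lower side also with 24 h pairs alone, at 81 higher and 67 lower, and with 36 h pairs alone, at 67 and 30. When the mean over the 8 pairs was taken instead, 141 clones were higher and 184 lower at this size. With arrays scaled to the same spread the rule left 27 higher and 2 lower.

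The 40 clones had mean differences of 1.37 to 3.89 log2 units with a median of 2.37, and came from 33 plates. Several clones can stand for the same gene, so the number of genes among them is not known. The clones were picked on the arrays that the calls are made from, so calls among them describe the set and support nothing. Of the 40, 39 met the listing rule of the fit, and these 39 are among the 280 higher calls. They had median TSA levels of 0.09, 0.33, 1.84 and 2.38 at 6, 12, 24 and 36 h. Their HMBA medians were -1.27, -0.99, -0.32 and 0.11, and their DMSO medians -0.51, -0.50, -0.34 and -0.15. With HMBA this set was thus lowest at 6 h and near its level before treatment at 36 h, and with TSA it stood far above that level from 24 h. Against before treatment, 37 of the 39 were called higher with TSA, where 4.51% of all clones tested were. With HMBA 10 were called higher and 6 lower, where 7.59% and 4.1% of all clones tested were.

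The 8 clones on the lower side had mean differences of -2.07 to -1.38 with a median of -1.59. Of these, 7 met the listing rule of the fit, and they are among the 507 lower calls, made from the same arrays. At 24 and 36 h their medians were -0.06 and -0.11 with TSA, 1.39 and 1.56 with HMBA, and 1.11 and 0.79 with DMSO. HMBA was called higher than before treatment in 6 of the 7, where 7.59% of all clones tested were. TSA was called higher in 1 and lower in 1, where 4.51% and 5.85% of all clones tested were.

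**Figure D5:**
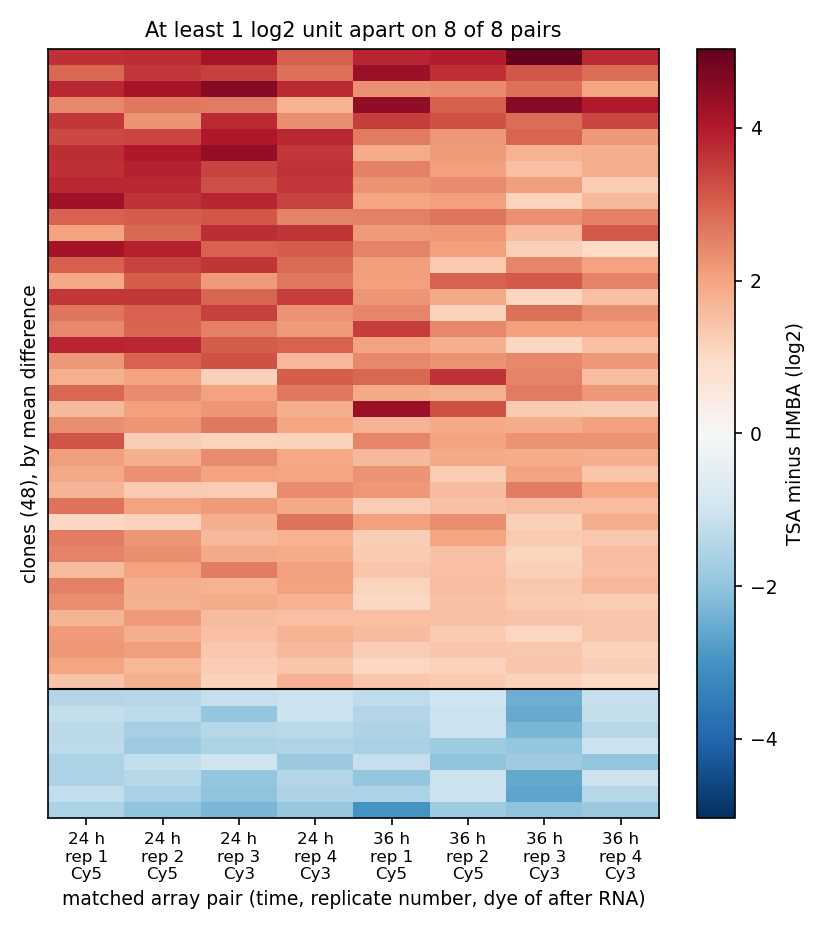
TSA minus HMBA in log2 units for the 48 clones at least 1 unit apart on every matched pair, 1 clone per row in order of mean difference, and 1 pair per column by time, replicate number and the dye of the after-treatment RNA. The 40 rows above the line are higher with TSA on every pair and the 8 rows below it are lower.

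The 8 pair differences agreed only in part, with higher median correlations within a dye than between dyes. Over the 12294 clones, pair differences of the same time and dye correlated at a median of r = 0.361 (range 0.102 to 0.452, 4 comparisons), and those of the same time and opposite dye at 0.236. Between 24 and 36 h the medians were 0.325 with the same dye and 0.201 with the opposite dye. These correlations are across clones, which are not independent, and pairs of the same dye share its effect on each clone. The differences of the condition means at 24 and 36 h correlated at r = 0.523 over the 14816 clones tested.

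Position on the clone plates moved with the calls. Slide 1 held 151 higher and 316 lower calls among 7194 clones tested (2.10% and 4.39%), and slide 2 held 129 and 191 among 7622 (1.69% and 2.51%). Of the variance of the late difference, 22.4% lay between plate rows. The fullest plate held 8 of the 280 higher calls, and the fullest plate of the lower calls held 17 of the 507. There were 8 plates, all of slide 1, with at least 10 lower calls each, which together held 105 of the 507 (20.7%). On these plates 570 clones were tested and 18.4% of them were called lower, against 3.42% of all clones tested. These plates were picked after their counts were seen. With the median of each plate row removed from every array, 187 of the 280 higher and 271 of the 507 lower calls were called again, among them 41 of the 105. The part of plate position in the difference was not tested.

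The higher calls had a lower median and upper quartile of signal strength than the clones tested, and the lower calls lay closer at both. The quartiles of intensity before treatment were 402, 686 and 1438 for the higher calls, 381, 792 and 2060 for the lower calls and 396, 824 and 2199 for the clones tested. With the authors' deposited ratios in place of the intensities, 620 of the 786 called clones that could be tested were called again, and 786 kept their sign.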

How the data were processed

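The authors deposited, per array, linear spot intensities of 2 slides, in a column for RNA before and a column for RNA after treatment, per the file headers. They also deposited a table of linear ratios, after over before, and the sources used here give neither its centring nor the scanning, background correction and spot filters. On 32 of 32 slides of these arrays the lowest intensities were higher in the channel labelled Cy3, as a check of the labelled dyes. The log2 ratios computed here correlated with the log2 of the deposited ratios at r = 0.948 to 0.992 per array.

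Background was modelled with normexp (offset 50), followed by a loess curve per slide (span 0.3), in limma 3.58.1 and R 4.3.3. The 4 arrays of a condition were averaged over the 2 dye orientations. Testing required a clone to be listed on at least 3 of 4 arrays in each of 12 conditions (TSA, HMBA and DMSO at 6, 12, 24 and 36 h). No filter against background could be used, since the files hold none. The fit had the time as a factor and the chemical within 6 to 12 h and within 24 to 36 h, with 8 parameters and 4 residual degrees of freedom. The procedure was run on simulated data, where 4 of 50 differences of 0.5 log2 units were called with the right sign. At 1, 1.5 and 2 log2 units 44, 48 and 50 of 50 were, and 6.41% of the calls were false. The noise was drawn independently for each clone and condition, so it held no shared dye or plate-row effect. The precision of a value is limited by the number of arrays and conditions.

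TSA and HMBA arrays were paired by replicate number. Deviations from the condition mean correlated at r = 0.127 to 0.271 for the same number, and at 0.0729 to 0.295 for the other number of the same dye. The same number had the higher value in 6 of 8 arrays. The ranges overlap, so these values do not settle whether the numbers pair the arrays. The named clones are the 2 largest differences in each direction among called clones with the same sign on 8 of 8 pairs. No clone could be matched to a gene, so the planned gene lists and markers were not tested. The clones, lists and comparisons were chosen with earlier results of these data known.

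Alternatives were another background correction and normalization, other listing filters, plate-row and plate-quadrant medians removed, single dyes, and conditions or replicates left out.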

Additional observations from a re-analysis of the deposited data

How the results depend on the processing

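Of the 787 clones called between TSA and HMBA, 0 were called in the opposite direction in 20 alternatives, and 29 to 755 were called again. The count was 29 without DMSO, 123 without 24 h, 69 without 36 h, 111 on the Cy5 and 362 on the Cy3 arrays alone, and 244 to 1453 with a replicate left out; leaving out conditions leaves fewer samples for the spread. The array-level fits gave 2553 with the replicate block and 2648 with no replicate term, a setting added after the data were seen. For TSA against before treatment (1535 calls) these settings gave 642, 416, 498, 732, 2468, 823 to 2240, 2806 and 2844. For HMBA against before treatment (1732) they gave 875, 1019, 483, 1164, 1039, 1126 to 1443, 3115 and 3171. The difference of late from 6 to 12 h (0 calls) had 23 with all 15 conditions, 2 without 24 h, 10 with clones listed on all 4 arrays, 13 and 1 with plate-row and plate-quadrant medians removed, 0 to 4 with a replicate left out, and 364 and 436 in the array-level fits. The 48 clones apart on every pair became 29 in scaled arrays, 137 on the Cy5 and 105 on the Cy3 arrays, 325 by the mean, 148 at 24 h, 97 at 36 h and 56 to 71 with a replicate left out. The cause of these shifts was not tested. H3144G06 (3.45 to 4.20), H3114F05 (3.03 to 3.62) and H3075A11 (-2.21 to -1.82) kept their calls in every alternative run, H3144G06 in 18 of them. H3021F05 (-2.01 to -1.34) lost its call in 4. The absence of a background measure limits what can be said of dim clones.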
